A study of Mus musculus with 7 samples.

Results

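Pax7 and Pax3 are 2 of the 21884 protein-coding genes on the mouse autosomes, X and Y in the GENCODE M21 annotation. Pax7 (ENSMUSG00000028736.13) lies at chr4:139737062-139833528 and Pax3 (ENSMUSG00000004872.15) at chr1:78101267-78197134 in GRCm38, both on the minus strand and both with 9 exons. For each gene, every region called by MACS, GoPeaks or SEACR and every TRF2 peak was collected from 100 kb before the gene to 100 kb past it. Merging the MACS peaks of the 4 ATAC-seq libraries wherever they shared at least 1 bp gave 72 regions in the Pax7 window and 15 in the Pax3 window, out of 122720 in the genome. The Pax7 window held 2 of the 7414 regions with a TRF2 peak in both TRF2 libraries, and the Pax3 window held 0.

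Both genes encode paired-domain transcription factors with a homeodomain. In limb muscle, Pax3 acts in embryonic progenitors and in the stem cells of some adult muscles, whereas Pax7 marks nearly all adult muscle stem cells (MuSCs) and is needed to maintain them. Both act upstream of the myogenic factors Myf5 and Myod1. TRF2, the product of Terf2, is a shelterin protein that binds telomeric TTAGGG repeats and protects chromosome ends, and it also binds G-quadruplexes (G4s), structures that guanine-rich DNA folds into.

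ATAC-seq, which cuts accessible DNA with a transposase, was carried out on sorted MuSCs of uninjured hind limb muscle from 2 Control and 2 TRF2KO libraries, described in the labels as biological replicates collected at 0 hr. In the study's methods the knockout carries floxed Terf2 alleles and a tamoxifen-induced Cre that is placed in the Pax7 gene, so the driver allele modifies one of the loci described here. The methods used here do not give the alleles of the ATAC Control mice. GEO's genotype field reads wild type for all libraries and the titles give the ATAC groups. CUT&Tag, which cuts DNA beside an antibody-bound protein, was carried out with a TRF2 antibody in 2 libraries and with IgG in 1 library, on MuSCs of the tibialis anterior labelled as 3 days after notexin, a muscle toxin. For these cells the methods give an earlier time, add the gastrocnemius muscle and name control mice written Pax7gCre/gCre;TdTomatofl/fl, a notation for Cre at Pax7 on both alleles. Thus TRF2 binding and accessibility were measured in different MuSC states, and no CUT&Tag library of TRF2KO cells was analysed here.

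The ATAC libraries held between 84102 and 100521 MACS peaks, the TRF2 libraries 12290 and 15479, and the IgG library 656. Control replicate 2 had the longest list. At the Terf2 start site the ATAC fold was 54.3 and 48.4 in Control against 21.5 and 18.6 in TRF2KO, so the groups did not overlap. All 10 MuSC marker genes had a start-site peak in all 4 ATAC libraries, against 3 of 5 endothelial, 2 of 5 fibro-adipogenic, 1 of 5 immune, 3 of 4 smooth muscle and pericyte, 1 of 4 Schwann and 3 of 5 myofibre markers, and 60.5% of all coding genes. The part of other cell types in the values below was not tested.

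The sequences under TRF2 at Pax7 are shown first because they carry the TRF2 result. Coordinates are GRCm38 and bases are given on the plus strand, while Pax7 lies on the minus strand. The first element lies past the 3′ end of Pax7, and 233 bases of it were shared by the peaks of both TRF2 libraries, at chr4:139716535-139716767. Capitals mark a cytosine-run stretch that forms a G4 pattern on the minus strand only when loops of up to 12 bases are allowed. They also mark 3 copies of TGANTCA, an AP-1-like pattern in which N is any base. The next 81 bases, chr4:139716768-139716848, lay under the TRF2 replicate 1 peak only, and capitals there mark a G4 pattern in which 4 guanine runs, none under 3 G, are joined by loops of 1, 1 and 3 bases. The third stretch is the 137 bases shared by both TRF2 peaks in intron 4, chr4:139805381-139805517, which held none of the patterns searched.
3′ element, shared: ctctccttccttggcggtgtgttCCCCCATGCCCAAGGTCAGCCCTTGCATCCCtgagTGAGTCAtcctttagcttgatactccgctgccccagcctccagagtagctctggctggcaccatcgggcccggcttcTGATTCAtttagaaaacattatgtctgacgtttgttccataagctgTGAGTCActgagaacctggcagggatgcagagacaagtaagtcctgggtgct
3′ element, replicate 1 only: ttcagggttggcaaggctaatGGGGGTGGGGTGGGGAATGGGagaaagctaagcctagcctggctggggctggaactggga
Intron 4 element, shared: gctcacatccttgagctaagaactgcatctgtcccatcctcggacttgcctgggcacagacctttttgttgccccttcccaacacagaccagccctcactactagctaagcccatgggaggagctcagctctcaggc

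The patterns searched on both strands were G4s whose runs hold 3 or more G, with loops of up to 7 or up to 12 bases, G4s whose runs hold 2 or more G, the telomere repeat TTAGGG, the AP-1-like pattern TGANTCA, and the MyoD-type E-box CAGCTG. A match is a description of letters, and overlapping matches were counted once. A G4 with loops of up to 7 bases was present in 25.5% of windows of 318 bases, the width of the merged 3′ element, centered on all 7414 TRF2 regions. One with loops of up to 12 bases was present in 40.9% of them. In windows of 233 bases, the width of the shared stretch, these shares were 19.5% and 32.5%. TGANTCA was present in 15.2% of windows of 233 bases centered in the same way. The copy at chr4:139716593-139716599 lay between the TRF2 summits of replicate 1 (139716572) and replicate 2 (139716611), and none of these letters was in the shared intron 4 stretch. TTAGGG was not in the 3′ element either, and was present in 9.91% of the 318-base windows.

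Accessible chromatin spread across a large share of the Pax7 locus and was sparse around Pax3. MACS peaks covered 32.2% and 35.1% of the 296 kb Pax7 window in Control, against 30.2% and 24.9% in TRF2KO. Control replicate 2 was the highest and TRF2KO replicate 2 the lowest. Among the same windows around all coding genes the medians were between 3.57% and 4.28%, and Pax7 ranked 28th and 33rd from the top in Control and 30th and 72nd in TRF2KO. The Pax3 window of 296 kb was covered by 3.16% and 3.27% in Control and by 2.77% and 3.01% in TRF2KO, between the 40.4th and the 44.5th percentile of coding genes.

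**Figure D1:**
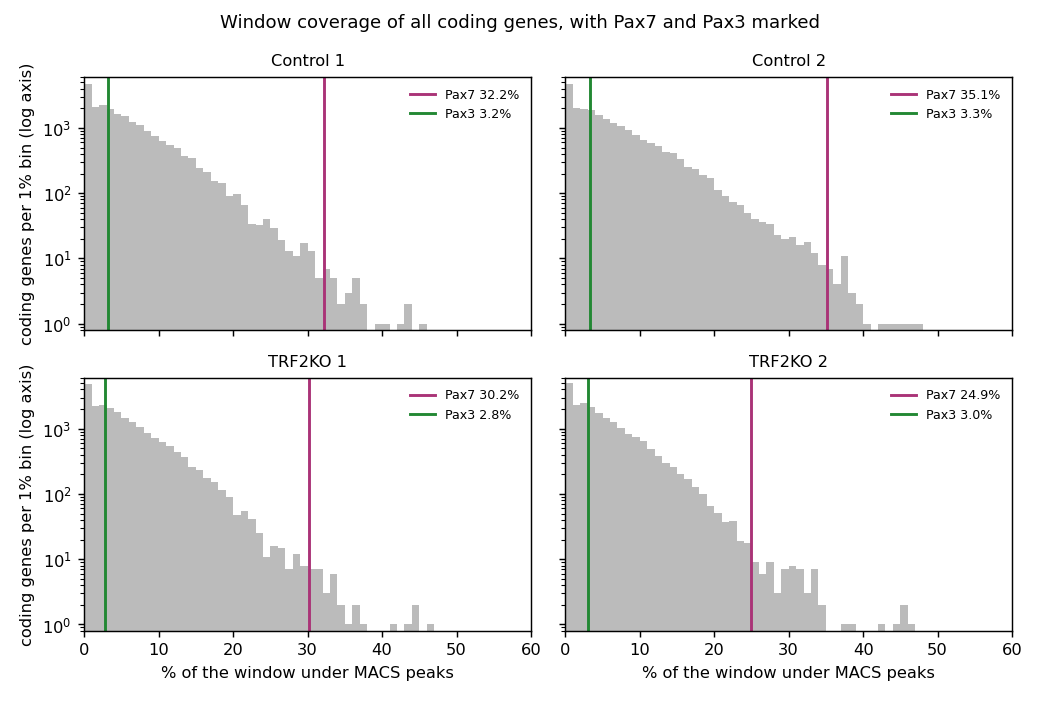
Percent of the window under MACS peaks (x axis) for all 21884 coding genes (y axis, genes per 1% bin, log scale), with 1 panel per ATAC library and vertical lines for Pax7 and Pax3. Pax7 lies in the upper tail in each panel, from 24.9% to 35.1%, and Pax3 near the middle of the distribution, from 2.77% to 3.27%.

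By number of peaks, the Pax7 window held 75 and 74 peaks in Control against 77 and 83 in TRF2KO, and the Pax3 window held 9 and 10 in Control against 10 and 10 in TRF2KO. Over the 4 libraries this was 77.2 ± 4.03 peaks for Pax7 and 9.75 ± 0.50 for Pax3 (SD, n = 4), and 90.8 ± 12.8 kb and 9.04 ± 0.635 kb under peaks. Pax7 was above Pax3 in 4 of 4 libraries in both measures (exact two-sided sign-flip permutation test, p = 0.125, the smallest that 4 libraries allow).

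Most of the covered sequence lay in the Pax7 gene itself and past its 3′ end. Peaks covered 66.6% and 72.8% of the gene in Control against 64.1% and 51.1% in TRF2KO. The 100 kb past the 3′ end were covered by 24.3% and 26.8% in Control against 20.9% and 18.7% in TRF2KO, whereas the 100 kb before the start were covered by between 5.94% and 7.09%. The other callers drew the window differently, with 26 to 33 GoPeaks regions and 3 to 6 SEACR regions per library. The authors' consensus lists, pooled by genotype, held 5 regions in each Pax7 window, covering 66.1% of it in Control and 62.1% in TRF2KO, and the longest unbroken region was 173 kb in Control and 131 kb in TRF2KO.

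**Figure D2:**
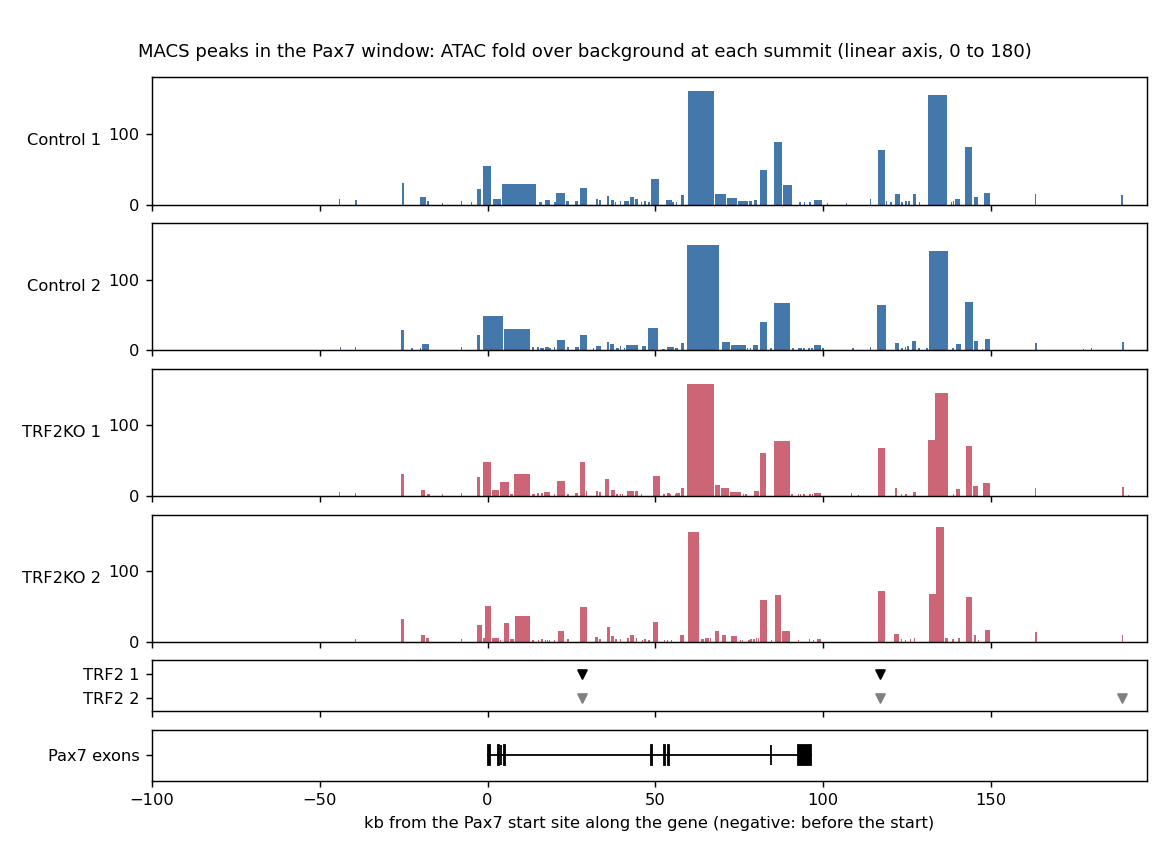
MACS peaks of each ATAC library in the Pax7 window, with kb from the start site on the x axis and the summit fold over background as bar height (0 to 180, bar width is peak width), TRF2 peak summits as triangles and exons as boxes. The tallest bars stand in intron 7 (148 to 161) and past the 3′ end (140 to 163), and both TRF2 libraries have a triangle in intron 4 and 20.5 kb past the 3′ end.

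The base pairs under peaks in the Pax7 window were 99.9 ± 6.05 kb in Control and 81.8 ± 11.2 kb in TRF2KO (SD, n = 2). The number of peaks was 74.5 ± 0.707 and 80 ± 4.24. The direction of the 2 measures was opposite, and neither could pass a threshold, since the exact permutation test of 2 against 2 libraries cannot go below p = 0.33, the value both gave. Median window coverage over all coding genes was also lower in both TRF2KO libraries (3.76% and 3.57%) than in both Control libraries (3.93% and 4.28%). At Pax3 the base pairs were 9.51 ± 0.238 kb in Control and 8.56 ± 0.503 kb in TRF2KO (exact permutation p = 0.33) and the peak numbers 9.5 ± 0.707 and 10.0 ± 0.00 (exact permutation p = 1). The difference in Pax7 base pairs was -18.1 kb, -10.2 kb without TRF2KO replicate 2 and -2.86 kb with SEACR regions, and that in Pax3 was -0.948 kb, -0.592 kb without TRF2KO replicate 1 and -6.64 kb with SEACR regions. The number of Pax7 peaks turned to lower in TRF2KO, by 3.5 peaks, when peaks under a −log10 q of 5 were left out.

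The strongest Pax7 regions lay in introns 7 and 8 and past the 3′ end. In intron 7, 62 kb from the start site (chr4:139764303-139774079), the summit fold over the library background was 161 and 148 in Control against 158 and 155 in TRF2KO. Past the 3′ end, 136 kb from the start (chr4:139696141-139702084), it was 156 and 140 in Control against 146 and 163 in TRF2KO. In both regions the groups overlapped. In intron 8 (chr4:139742221-139748263) the fold was 88.6 and 66.6 in Control against 78.4 and 66.0 in TRF2KO, and past the 3′ end at chr4:139688751-139691208 it was 81.0, 67.8, 70.9 and 63.3 in the same order. The fifth of these strong regions, in intron 7 at chr4:139750166-139752443, is described below. In total 6 of the 43 regions with a peak in all 4 libraries had a mean percentile of at least 90 by fold among the peaks of their own library. The share of all such regions in the genome that reached 90 was not counted. The median of the mean percentiles was 54.1 over the Pax7 regions, below the 64.2 over all regions with a peak in all 4 libraries.

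At the Pax7 start site the summit fold was 54.5 and 48.4 in Control against 47.8 and 50.4 in TRF2KO. The folds overlapped, while the percentiles, 90.1 and 91.5 in Control against 88.0 and 89.5 in TRF2KO, did not (90.8 ± 0.954 and 88.8 ± 1.06, SD, n = 2, exact permutation p = 0.33). At the Pax3 start site the fold was 26.7 and 22.9 in Control against 21.5 and 19.5 in TRF2KO, and the percentiles were 78.6, 80.8, 75.0 and 74.3 in the same order (79.7 ± 1.54 and 74.6 ± 0.487, exact permutation p = 0.33). Pax3 was thus lower in both TRF2KO libraries than in both Control libraries by fold and by percentile. With each library centered on its median, the log2 difference at the Pax3 start site was -0.12 (adjusted p = 0.552 in the limma test described below). The Pax7 difference of -2.0 percentile points was -1.25 without TRF2KO replicate 1, -1.32 without Control replicate 2 and -3.72 when ranked among peaks within 3 kb of a start site. Of the coding genes with a start-site peak in all 4 libraries, 28.6% had lower percentiles in both TRF2KO libraries and 9.11% higher ones.

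The Pax3 window had few strong regions. The highest was in intron 4 (chr1:78181798-78182398, 15.0 kb from the start), where the fold was 27.2 and 25.9 in Control against 26.8 and 28.1 in TRF2KO. Before the start, at chr1:78215768-78218857, it was 19.8 and 16.7 in Control against 16.9 and 16.6 in TRF2KO. The others with a peak in all 4 libraries that ranked highest were at chr1:78188651-78190501 and chr1:78148017-78148827 in intron 4, with folds from 15.4 to 17.6 and from 12.3 to 13.6, and at chr1:78202808-78204211 before the start, with folds from 5.9 to 8.0. None of the Pax3 regions past the 3′ end was called in all 4 libraries.

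**Figure D3:**
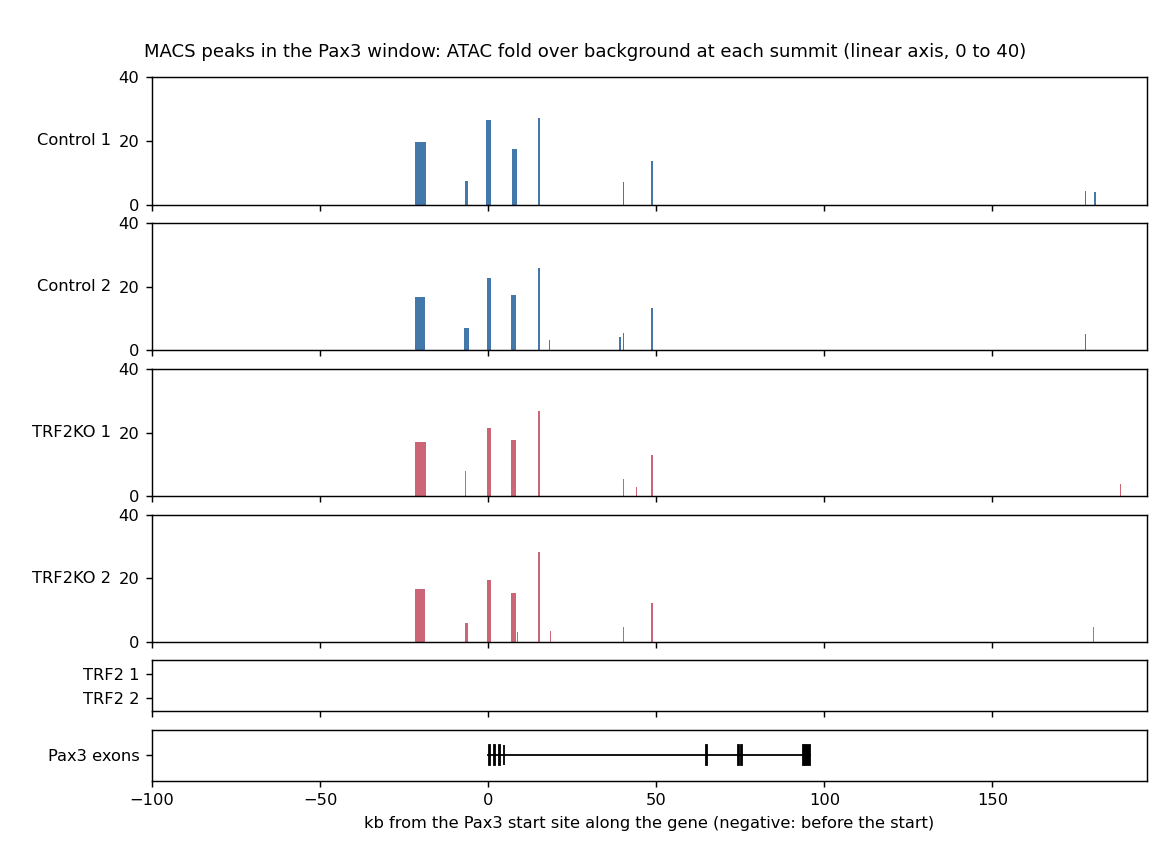
MACS peaks of each ATAC library in the Pax3 window, with kb from the start site on the x axis and the summit fold as bar height (0 to 40), with TRF2 summits (none) and exons below. Peaks stand at the start site (19.5 to 26.7), in intron 4 and before the start, with a few low ones past the 3′ end.

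Regions were then compared between genotypes by their rank within each library. In the Pax7 window 21 of the 43 regions had a lower percentile in both TRF2KO libraries than in both Control libraries and 3 had a higher one. Over all 61610 regions with a peak in all 4 libraries these shares were 44.1% and 8.94%, so the Pax7 count was near the background. In the Pax3 window 3 of 7 were lower and 0 higher. A peak in both Control libraries and in neither TRF2KO library was found for 1 Pax7 region, in intron 4 at chr4:139801653-139802035 with folds of 4.6 and 2.88, and for 1 Pax3 region, at chr1:78019388-78019660 past the 3′ end with folds of 4.14 and 5.04. Over all merged regions the share was 4.48%, and 1.12% had a peak in both TRF2KO libraries only, of which neither window held any. SEACR called a region over the Pax7 one in all 4 libraries, and its regions covered at least 99.3% of the Pax7 gene in each. GoPeaks called one there in Control replicate 1 only. Over the Pax3 one neither GoPeaks nor SEACR called a region in any library, Control included. SEACR at Pax7 and both callers at Pax3 thus cannot tell the genotypes apart.

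The size of the differences was tested with limma on the log2 summit fold of the 61610 regions, a test added after the values had been seen. With each library centered on its median, 7.48% of all regions were lower and 18.5% higher in TRF2KO (adjusted p under 0.05), and after cyclic loess scaling 8.57% were lower and 5.68% higher. The calls named here are those made under both scalings, which covered 6.82% of all regions as lower and 5.68% as higher. They comprised 4 of the 43 Pax7 regions, 1 lower and 3 higher, a share near the background, and 0 of the 7 Pax3 regions (lowest adjusted p 0.265 with median centering, and 0 of 7 with an unadjusted p under 0.05). With median centering alone, the regions at 136 kb and at -2.95 kb were also called higher, by 0.21 (limma, adjusted p = 0.0188, and 0.337 after cyclic loess) and 0.37 (adjusted p = 0.0315, and 0.14 after cyclic loess). The call at 136 kb was lost without TRF2KO replicate 2 (0.069, limma adjusted p = 0.611) and without Control replicate 1 (0.19, adjusted p = 0.0868), and that at -2.95 kb without Control replicate 1 (0.28, adjusted p = 0.248) and without TRF2KO replicate 1 (0.32, adjusted p = 0.149). The 4 were named after their values were seen, except the intron 4 TRF2 element and the strong intron 7 region.

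**Figure D4:**
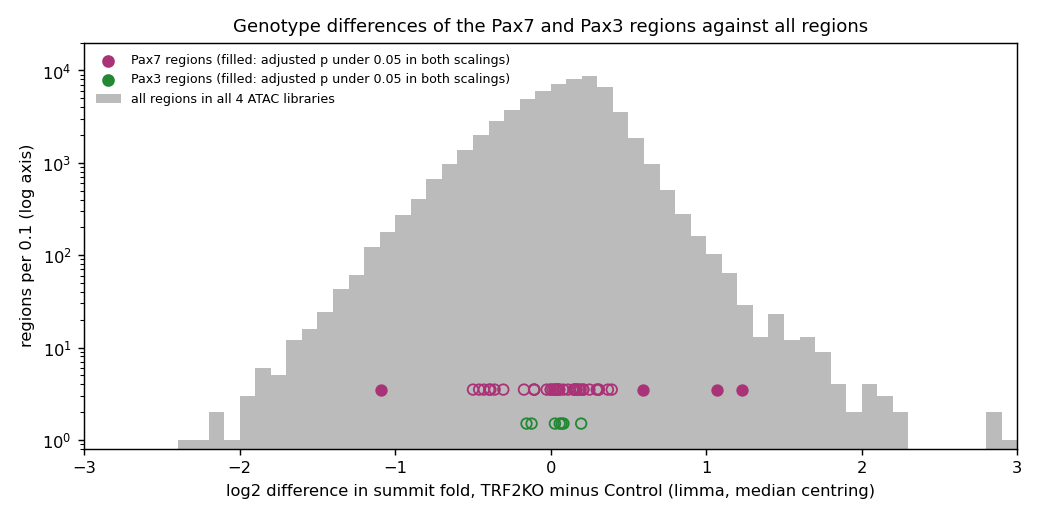
Histogram of the log2 difference in summit fold, TRF2KO minus Control (x axis), for all 61610 regions (y axis, regions per 0.1, log scale), with the 43 Pax7 and 7 Pax3 regions as circles, filled where the adjusted p was under 0.05 in both scalings. The filled Pax7 circles lie at -1.09, 0.59, 1.07 and 1.23, and no Pax3 circle is filled.

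The largest difference in the Pax7 window was a gain in the ATAC region over the intron 4 TRF2 element, 28.3 kb from the start site. The ATAC fold of the region was 23.9 and 22.5 in Control against 48.5 and 49.7 in TRF2KO, from 103, 124, 211 and 218 fragments at the summit. The TRF2KO libraries were both above the Control libraries by more than their spread, with a log2 difference of 1.23 ± 0.113 (SE, limma, adjusted p = 2.9e-13; 1.1 and 1.9e-11 after cyclic loess). Only 109 of the 61610 regions had a difference at least as high. The summit also moved, lying -218 and -224 bp from the mean TRF2 summit in Control and -77.5 and -106 bp in TRF2KO. The TRF2KO summits lay inside the 414 bp under the TRF2 peaks and the Control summits outside it, so the Control fold was not read within the element.

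A further region of the same intron, 36.0 kb from the start (chr4:139797042-139798415), rose in the same way. Its fold was 12.0 and 12.6 in Control against 24.9 and 21.8 in TRF2KO, with summits within 12 bp of each other and a log2 difference of 1.07 ± 0.159 (SE, limma, adjusted p = 5.0e-07). No TRF2 peak lay over it. The 101 bases at its mean summit, chr4:139797519-139797619, are shown because they hold both TGANTCA and CAGCTG, marked in capitals. Of windows of this length at the summits of 53391 regions, 8.56% held TGANTCA and 17.9% held CAGCTG. The share that held both was not counted. The 101 bases at the mean summits of the other regions called under both scalings did not hold both. They held TGANTCA only at 81.8 kb, and CAGCTG only at 127 kb, where the fold fell. At 28.3 kb they held neither, but the summit of each library lay outside these 101 bases. The merged TRF2 region at 28.3 kb held 1 CAGCTG, which 27.6% of windows of its 414 bases held.
Intron 4 region without TRF2 peak: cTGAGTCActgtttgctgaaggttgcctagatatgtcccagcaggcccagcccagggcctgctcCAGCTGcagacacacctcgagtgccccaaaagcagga

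In intron 7, 81.8 kb from the start (chr4:139750166-139752443), the fold was 49.2 and 39.8 in Control against 61.1 and 59.7 in TRF2KO. The log2 difference was 0.59 ± 0.0944 (SE, limma, adjusted p = 2.1e-06) and 0.42 after cyclic loess. The region that fell lay 127 kb from the start, past the 3′ end (chr4:139705676-139706966), with a fold of 15.6 and 13 in Control against 6.40 and 5.67 in TRF2KO. Its log2 difference was -1.09 ± 0.208 (SE, limma, adjusted p = 4.9e-05), and the groups did not overlap.

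**Figure D5:**
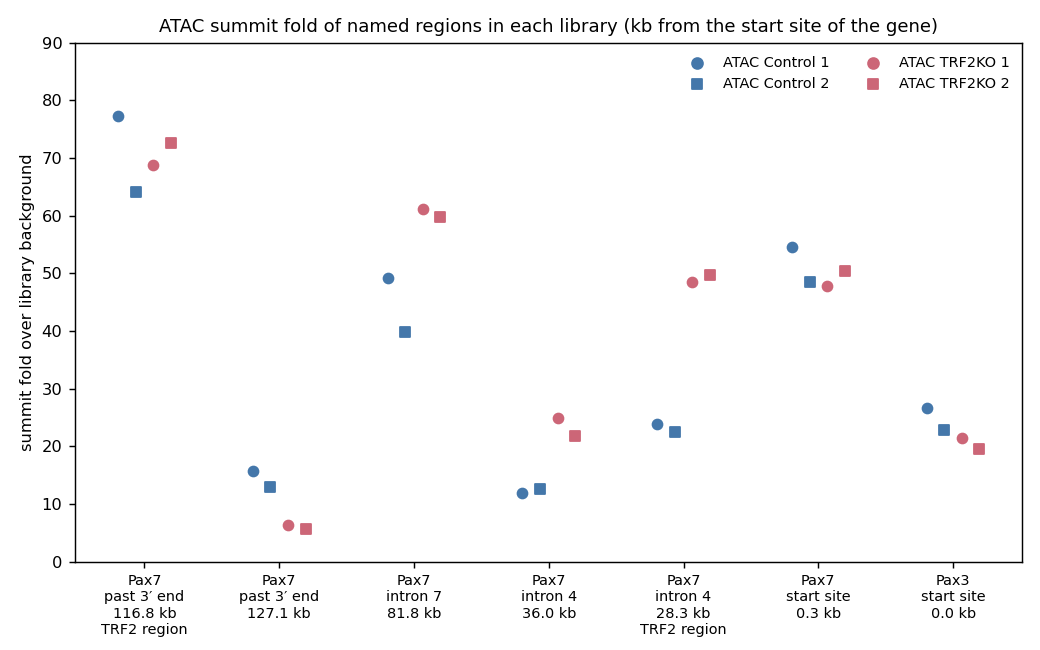
Summit fold over the library background (y axis, from 0) in each of the 4 ATAC libraries for the 3′ element, the 4 Pax7 regions called under both scalings and the Pax7 and Pax3 start sites, with kb from the start site under each. The points of the genotypes are mixed at the 3′ element and at the Pax7 start site. They are apart at the 4 called regions and also at the Pax3 start site, which was not called.

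At the 3′ element itself, 20.5 kb past the end of Pax7, accessibility was high in both genotypes. The ATAC fold was 77.3 and 64.1 in Control against 68.8 and 72.6 in TRF2KO, at 335, 355, 300 and 319 summit fragments. The groups overlapped, and the log2 difference was 0.15 with median centering (limma, adjusted p = 0.187) and -0.06 after cyclic loess (adjusted p = 0.686). By rank the percentiles were 94.4 and 94.5 in Control against 92.6 and 93.9 in TRF2KO, a difference of -1.2 percentile points (exact permutation p = 0.33). It was -0.578 without TRF2KO replicate 1, -1.82 without TRF2KO replicate 2 and -0.244 when ranked among peaks over 3 kb from a start site. The ATAC summits lay 108 to 166 bp from the mean TRF2 summit.

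TRF2 peaks at Pax7 lay below the median fold of their own list, except the intron 4 peak of replicate 1. The 3′ element had a TRF2 fold of 4.54 in replicate 1 and 5.12 in replicate 2, at percentiles 22.0 and 36.5 by fold, each from 9 fragments at the summit (95% exact Poisson interval 4.12 to 17.1, counting error only). The intron 4 element had a fold of 5.79 and 4.98, at percentiles 56.2 and 32.9, from 10 and 8 fragments. The median TRF2 folds were 5.53 and 5.63. None of these peaks reached a −log10 q of 5, which 44.0% and 45.7% of the TRF2 peaks did, and the values were 3.06 and 3.87 at the 3′ element and 4.94 and 3.51 in intron 4. No IgG peak lay in either window.

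TRF2 replicate 2 alone had a further peak 92.8 kb past the 3′ end, at chr4:139644228-139644480 inside Aldh4a1, a mitochondrial proline pathway enzyme gene, and beside the microRNA gene Mir7020. The ATAC fold there was 13.6 and 12.2 in Control against 13.3 and 10.2 in TRF2KO, with a log2 difference of -0.00 (limma, adjusted p = 0.999). No TRF2 peak lay at the start of Pax7 or of Pax3, and a TRF2 region lay at the start of 22% of coding genes. A TRF2 region was found within 100 kb of 67.2% of coding genes, Pax7 among them, and over 10.5% of the regions with a peak in all 4 ATAC libraries, against 2 of 43 at Pax7.

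Apart from Mir7020, the other genes starting in the Pax7 window had few ATAC peaks at their starts. Tas1r2, a sweet taste receptor subunit gene, had a start-site peak in 1 of 4 libraries with a fold of 2.88, and the lincRNA genes Gm1667 and Gm13028 had none. No other annotated gene overlapped the Pax3 window.

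Within the Pax family, 3 of 9 genes had a start-site peak in all 4 libraries, namely Pax2, Pax3 and Pax7, and Pax1, Pax4 and Pax8 had none in any. Pax7 had the highest fold, Pax3 followed, and Pax2 was lowest, at 11.3 and 10.4 in Control against 13.5 and 12.3 in TRF2KO. In each of the 4 libraries the order was the same, and the ranges of the 3 genes did not overlap. Pax5, which specifies B cells, had a start-site peak in the TRF2KO libraries only, with folds of 3.89 and 3.86. These peaks were low in their lists, at percentiles 16.7 and 19.2. Over all merged regions of the genome, 1.12% had a peak in both TRF2KO libraries only.

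Of 24 genes listed as partners or targets of Pax7 and Pax3, 23 had a start-site peak in all 4 libraries, 14 of them with lower percentiles in both TRF2KO libraries and 0 with higher ones. The list was chosen with earlier results of these data known, and its share is to be read beside the 28.6% of all coding genes given above. Among those with lower percentiles, Myod1, a master regulator of myogenesis, was at 98.1 and 98.2 in Control against 97.0 and 96.7 in TRF2KO. Its folds overlapped, at 121 and 102 in Control against 110 and 100.1 in TRF2KO. Myog, which drives differentiation, had folds of 26.7 and 20.9 in Control against 18.8 and 13.8 in TRF2KO. Itga7, the integrin used to isolate MuSCs, had 73.4 and 68.0 in Control against 35.0 and 56.1 in TRF2KO. The others included Myf6, Fgfr4, Dmrt2, Six4, Eya1, Id3, Msc, Spry1 and Cdh15. A TRF2 region lay at the start of 6 of the 24, among them Myf6, Dmrt2, Id3 and Carm1, against 22% of all coding genes, so the count was near the background. Carm1 encodes the arginine methyltransferase that modifies Pax7.

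By the distance between their 4 start-site percentiles, the coding genes most like Pax7 were Map2k2 (0.614 percentile points), Arl5b (0.671) and Mif (0.709), and those most like Pax3 were Rftn1 (1.06), Zfp383 (1.32) and Rpf2 (1.63), out of 13249 genes compared over 4 libraries.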

How the data were processed

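The authors aligned reads with Bowtie2 and called peaks with MACS3, SEACR and GoPeaks, per the labels, the submitters' processing notes and the study's methods, on GRCm38 (mm10). The deposited MACS lists hold a fold over background, −log10 p and q values and an integer score. The MACS lists of both assays and the SEACR and GoPeaks lists of ATAC-seq were used here. The deposited SEACR lists hold a summed signal and a maximum signal, the deposited GoPeaks lists positions only, and the authors' consensus lists a score per genotype. The fold is a ratio of (pileup + 1) to (background + 1), from which the ATAC pileups were recovered as whole fragments for 100% of peaks (tolerance 0.05). Library totals were not used here, so depth is given as list lengths. The background recovered with the pileups was highest in Control replicate 2, at 4.56 fragments. It was 3.35 in Control replicate 1, and 3.37 and 3.41 in TRF2KO replicates 1 and 2.

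Peaks sharing at least 1 bp were merged, and the highest peak of each library gave the region's fold and percentile. A peak within 1 kb of a gene's start counted as a start-site peak. Groups came from the titles, and peaks were called per library. Tests were exact permutations, and limma (3.58.1, trended empirical Bayes, Benjamini-Hochberg adjustment) on log2 fold. The limma code was run on simulated data whose changes were larger than any Pax7 difference, so that run cannot speak for smaller ones. The replicates are called biological in the design text, and limma borrows the spread across regions. An accessibility difference in bulk cells cannot be told apart from a difference in the share of cells open there.

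Named regions were the start sites, regions under a TRF2 peak and, per gene, the 5 others of highest mean percentile. Named genes were those starting in the windows, the 3 nearest to each member by start-site percentiles, and list members by start-site rank or TRF2 peak, of which some are counted but not reported by name here. The members, lists and motifs were chosen with earlier results of these data known. Sequences came from the GRCm38.p6 RefSeq genome.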

Additional observations from a re-analysis of the deposited data

How the results depend on the processing

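In the Pax7 window the Control-only count of 1 became 0 when no GoPeaks or SEACR region of TRF2KO was allowed and 2 at a −log10 q of at least 5, and ranged from 4 to 11 when each ATAC library was left out, where the requirement of 3 libraries in place of 4 adds regions. The count of regions lower in TRF2KO ranged from 24 to 37 without each library (37 without Control replicate 1). Leaving a library out adds regions to this count too and makes its rule easier to meet, also at Pax3. The matching share over all regions was not counted. The TRF2 region count of 2 became 1 with at least 50% of both peaks shared, 0 at a −log10 q of at least 5 and 3 with a peak in either library. The limma count of higher regions fell from 5 to 3 under cyclic loess and ranged from 3 to 5 without each library (3 without Control replicate 1), and that of lower regions ranged from 1 to 2 (2 without TRF2KO replicate 2). At Pax3 the Control-only count of 1 became 0 with 50 kb to each side and ranged from 1 to 2, and the count of lower regions ranged from 3 to 8 (8 without Control replicate 1, 5 without TRF2KO replicate 1). At a −log10 q of at least 5 the difference in peak number, TRF2KO minus Control, turned to -3.5 at Pax7 and to -1 at Pax3. The G4 count of the 3′ element was 1, 2 with loops of up to 12 bases and 4 with runs of at least 2 G. Cyclic loess turned the log2 difference at the 3′ element to -0.061, at the Pax7 start site to -0.093, in intron 7 at 62 kb to -0.14, in intron 8 to -0.17, past the 3′ end at 136 kb to -0.096 and at 144 kb to -0.21, and before the Pax3 start (-21.2 kb) to -0.012, while the median of all regions went from 0.10 to 0.012. Without each library, differences that were near 0 ranged across it, at Pax7 from -0.13 to 0.13 (189 kb), -0.036 to 0.038 (144 kb), -0.062 to 0.17 (intron 8) and -0.017 to 0.18 (start site), and at Pax3 from -0.020 to 0.13 and -0.012 to 0.15 (intron 4, 48.9 and 7.88 kb) and -0.079 to 0.24 and -0.017 to 0.070 (before the start, -6.83 and -21.2 kb). With summits within 150 bp the value at 144 kb was -0.0099. The 4 Pax7 regions called under both scalings kept their call in all of these limma fits, with adjusted p up to 0.0039. Same-numbered libraries did not deviate together (correlation of deviations 0.0128 over regions), so the numbers were taken as names. The replicate block left the difference in Pax7 base pairs at -18.1 kb (exact permutation p = 0.5), which ranged from -26.0 to -10.2 kb without each library and was -2.86 kb with SEACR regions (exact permutation p = 1), and changed no call among the named regions. The cause of these changes was not tested. Fits without a library rest on 3 libraries and assume a common spread. Having 2 libraries per group limits all comparisons of single values.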
